A study of Nothobranchius furzeri with 185 samples.

Results

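Skin from 5 untreated turquoise killifish (Nothobranchius furzeri) with a labelled age at death of 39 weeks was compared with skin from 5 untreated fish with an age at death of 27 weeks. Members were all libraries whose labels give skin, normal aging and either age, which makes 10 of the 185 libraries of the series. The fish differ between the ages, so the groups are unpaired, and the labels give neither the sex of a fish nor the time of day at which it was sampled. No allele or agent distinguishes the groups, and the labels state a treatment of none for each fish. The 39-week fish carry the codes JM1, JM13, JM15, JM18 and JM24, and the 27-week fish JM55, JM62, JM72, JM74 and JM83. Values per library below follow these orders. Skins of 5, 12 and 20 weeks, with 5 fish each, entered the same fit and set the age course.

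The killifish is a short-lived annual fish in which ageing can be followed within months. Its skin is a living epidermis with keratin-filled cells on a dermis of collagen fibres that holds scales, pigment cells, vessels and nerves. Collagens and the glycoproteins around them carry the mechanical load of the dermis, and in mammalian skin their loss is a known feature of age. Ribosomes, the respiratory chain and the proteasome make proteins, supply energy and remove proteins in every cell type of the tissue.

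Each 39-week library held 21430132 to 37163748 counts assigned to genes, and each 27-week library 20988583 to 32350609. Keratin genes summed to 4.25 to 6.35% of the TMM-scaled library size in the 39-week skins and 3.23 to 5.73% in the 27-week skins. Skeletal muscle genes summed to 9.19 to 26.3% in the 39-week skins and 9.44 to 24.8% in the 27-week skins. These are not shares of raw counts, since TMM factors were 0.777 to 0.93 at 39 weeks and 0.915 to 1.21 at 27 weeks. Muscle transcripts were thus present beside those of skin at both ages. Summed haemoglobin and other red-cell genes reached 4768 CPM (counts scaled to library size) in JM18, against 304 to 916 CPM in the other 39-week skins and 219 to 824 CPM in the 27-week skins. Digestive enzymes of the exocrine pancreas summed to 767 CPM in JM13, 1982 in JM18 and 767 in JM24, against 51.3 to 372 CPM in the 27-week skins. JM1 and JM15, at 113 and 220.3 CPM, lay within that range. The skin of JM24 also stood between the ages, as the position plot shows.

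A large share of skin genes differed between 39 and 27 weeks. Of 18925 genes tested, 7148 were called (37.8%), 3233 of them higher (17.1%) and 3915 lower (20.7%) at 39 weeks. A gene is called where edgeR's quasi-likelihood test gave an adjusted p under 0.05, and fold changes are log2 of 39 over 27 weeks. Larger changes were mostly decreases: 1337 called genes were at least 2-fold higher and 3023 at least 2-fold lower, and 95 were at least 4-fold higher against 1011 at least 4-fold lower. In 3471 of the called genes the 5 skins of one age did not overlap the 5 of the other in log2 CPM, which held for 3539 of all genes (18.7%). With JM13, JM18 and JM24 left out, a choice made after seeing the data, only JM1 and JM15 remained at 39 weeks. That fit called 7504 genes, 5363 of which were also called with all fish and in the same direction. A fit on the 39- and 27-week libraries alone called 4517 genes, and a test against a 1.5-fold change 3484, of which 1006 were higher and 2478 lower. The skins are bulk tissue, in which fewer cells of a type and less RNA per cell cannot be told apart.

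Along the line from 27 to 39 weeks, skins of the earlier ages lay near those of 27 weeks. Every skin was placed on a line with the mean 27-week skin at 0 and the mean 39-week skin at 1, from genes called without the skin placed where it was one of the 10. JM1, JM13, JM15 and JM18 lay at 1.09, 0.951, 0.833 and 1.32, and JM24 lay at 0.422. The 27-week skins lay between -0.0618 and 0.212. Skins of 5, 12 and 20 weeks lay between -0.125 and 0.136 and overlapped the 27-week skins. A position sums over genes, so changes in opposite directions cancel in it and single genes may differ between the earlier ages. Between 27 and 20 weeks edgeR called 0 genes, with 1429 genes at an unadjusted p under 0.05 and 36 called by DESeq2. Between 20 and 12 weeks edgeR called 1 gene (0.00528%), the clock gene per2 Nfu_g_1_020053 (2.47 ± 0.39, adjusted p = 0.0373), and DESeq2 159, with 2330 genes at an unadjusted p under 0.05. With 1 of these 10 skins left out at a time edgeR called 0 to 4 genes.

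**Figure D1:**
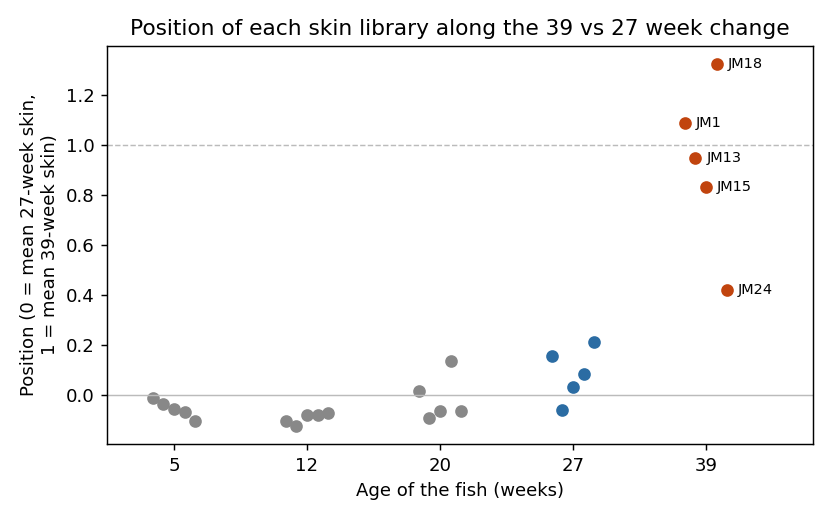
Position of each of 25 untreated skins (points) along the change between 27 and 39 weeks, by age in weeks; 0 is the mean 27-week skin and 1 the mean 39-week skin. The other 4 ages lie between -0.125 and 0.212, while the 39-week skins run from 0.422 (JM24) to 1.32 (JM18).

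Several library measures moved with age and stand beside every result below. Transcripts of mitochondrial protein genes took 7.18 ± 0.894% of counts in the 39-week skins and 4.11 ± 0.508% in the 27-week skins (mean ± SD, n = 5 each). Mitochondrial rRNA and tRNA took 0.225 ± 0.0382% in the 39-week skins and 0.0989 ± 0.0227% in the 27-week skins. Both measures had no overlap between the ages (exact two-sided permutation p = 0.00794, the smallest that groups of 5 allow, and 0.0159 adjusted over 6 measures). The slope described next also had no overlap, with the same p and adjusted p. It measures the similarity to a brain library of a 27-week vehicle-treated (DMSO) fish, MC10, which differs widely from the other brains of its group. The log2 difference of that brain from its group mates was used as a scale, and each skin's deviation was regressed on it. Slopes of the 39-week skins ran from 0.302 to 0.730 and those of the 27-week skins from -0.0796 to 0.0770, relative to the mean 27-week skin. Slopes at 5, 12 and 20 weeks lay between -0.142 and 0.0983. Livers of 39-week fish, 4 of them from the same fish as the skins, had slopes of -0.0628 to 0.117, against -0.0785 to 0.101 in 27-week livers.

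**Figure D2:**
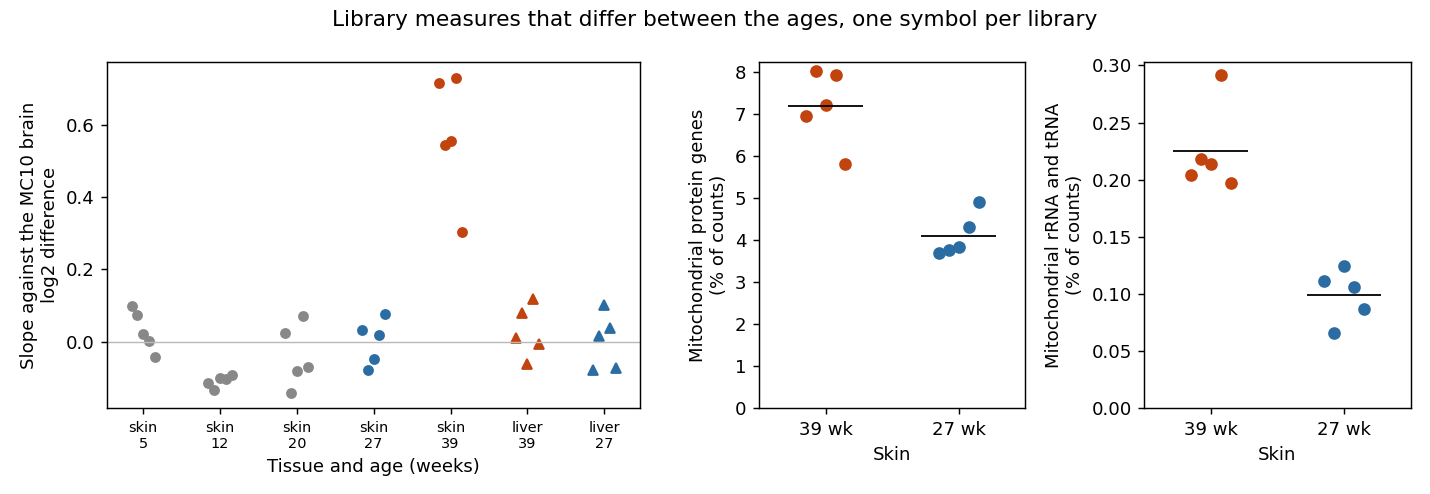
Left: slope of each library's deviation from the mean 27-week library of its tissue on the MC10 brain difference (log2 per log2), for skins of 5 ages and livers of 2 ages. Middle and right: share of counts from mitochondrial protein genes and from mitochondrial rRNA and tRNA (%), with group means as lines; both are higher in all 5 skins of 39 weeks than in any of 27 weeks.

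Across 17657 genes with a value on the MC10 scale, the fold change in skin and the MC10 difference had a Spearman correlation of 0.709, given as a description since genes are not independent. Fold change and gene length had a correlation of -0.0451 over 18734 genes. Of 667 tested genes that read at least 8-fold lower in the MC10 brain, 567 were called lower in 39-week skin, with a median log2 fold change of -2.24. When that scale was entered as an offset, 2460 of 17657 genes were called (13.9%), 1237 higher (7.01%) and 1223 lower (6.93%). Of the 7148 genes called without it, 6763 had a value on the scale, and 1763 of these were called again with the same sign. The labels hold no RNA integrity value, and the part of RNA quality in these results was not tested. The labels give no extraction date or sequencing run by which the ages could be split. Counts with the offset stand beside most lists below.

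Among the leading genes, the increases were a mixed group and the decreases included 2 collagens. Leading genes are the largest changes among called genes with a symbol, a mean log2 CPM of 2 or more and no overlap between the ages. Their sign also held with each library left out. Among all tested members of the lists below, called or not, log2 fold changes reached 3.81 in the macrophage list and -5.59 in the muscle list. The largest increase within the rule was si:dkeyp-80c12.8, a gene named after its zebrafish clone. It read 98.3, 166, 90.2, 194 and 52.8 CPM in the 39-week skins, against 22.2, 6.16, 13.4, 13.9 and 9.05 CPM in the 27-week skins, a change of 3.22 ± 0.43 (log2 fold change ± SE, adjusted p = 6.60e-06). Every 39-week skin was above every 27-week skin, as the rule required of each leading increase. The antimicrobial and iron-regulating peptide gene hamp2 (hepcidin) read 56.6, 118, 161, 105 and 60.8 CPM in the 39-week skins, against 39.8, 21.996, 8.70, 14.97 and 18.6 CPM in the 27-week skins, a change of 2.27 ± 0.56 (log2 fold change ± SE, adjusted p = 0.00241). The highest reading of hamp2 was that of JM15. For mgp, the matrix Gla protein that restrains calcification, the values were 113, 304, 86.4, 200.03 and 82.2 CPM in the 39-week skins, against 32.2, 16.04, 47.3, 51.7 and 36.3 CPM in the 27-week skins, a change of 2.10 ± 0.49 (log2 fold change ± SE, adjusted p = 0.00151). JM13 was highest among the older fish and JM62 lowest among the younger. With the MC10 offset neither hamp2 nor mgp passed the test, at log2 fold changes of 1.35 (adjusted p = 0.124) and 1.22 (adjusted p = 0.109), and si:dkeyp-80c12.8 has no value on that scale. The DNA repair gene rad52 Nfu_g_1_000061 varied little within either age, at 13 ± 2.94 CPM in the 39-week skins and 2.996 ± 0.208 CPM in the 27-week skins (SD, n = 5 each), a change of 2.11 ± 0.20 (log2 fold change ± SE, adjusted p = 4.67e-07). The other leading increases were zgc:195001 Nfu_g_1_007666, spna2 Nfu_g_1_000766 and the loci Nfu_g_1_009243 and Nfu_g_1_021782 of CABZ01066695.1, with log2 fold changes of 2.26 to 2.72. A locus identifier follows a symbol that several loci share, since reads may be split between such loci and their values are less certain.

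The leading decreases included structural and matrix genes. Plectin (pleca Nfu_g_1_002321), which ties keratin filaments to junctions, read 3.36, 11.5, 10.6, 1.03 and 20.6 CPM in the 39-week skins, against 41.1, 159.6, 218, 61.1 and 139.7 CPM in the 27-week skins, a change of -3.72 ± 0.73 (log2 fold change ± SE, adjusted p = 0.000316). The highest older skin was JM24 and the lowest younger skin JM55, and the rule for leading genes required that the ages not overlap. Collagen XII (COL12A1 Nfu_g_1_000084), which coats collagen fibres, read 0.481, 1.18, 2.07, 0.413 and 8.82 CPM in the 39-week skins, against 16.2, 47.05, 37.2, 33.2 and 29.6 CPM in the 27-week skins, a change of -3.65 ± 0.57 (log2 fold change ± SE, adjusted p = 2.77e-05). Collagen VI (col6a3 Nfu_g_1_004235), which forms beaded filaments around cells, read 0.841, 3.45, 2.12, 1.65 and 18.5 CPM in the 39-week skins, against 18.9, 68.99, 72.5, 52.6 and 50.6 CPM in the 27-week skins, a change of -3.31 ± 0.58 (log2 fold change ± SE, adjusted p = 0.000105). In both collagen genes JM24 was the highest of the 39-week skins. The creatine transporter slc6a8 changed by -3.37 ± 0.48 (adjusted p = 1.22e-05), the neurotrophin receptor NGFR (3 of 3) by -3.28 ± 0.46 (adjusted p = 1.08e-05) and the RNA-editing enzyme adar Nfu_g_1_001099 by -3.34 ± 0.58 (adjusted p = 8.51e-05). The keratin-organizing gene FAM83H (1 of 2) changed by -3.40 ± 0.48 (adjusted p = 1.01e-05) and midn Nfu_g_1_016037, midnolin, by -3.29 ± 0.52 (adjusted p = 3.14e-05). All 8 leading decreases read lower in the MC10 brain, by a log2 difference of -4.22 to -2.17, and with the MC10 offset they remained called, at log2 fold changes of -2.11 to -1.28.

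**Figure D3:**
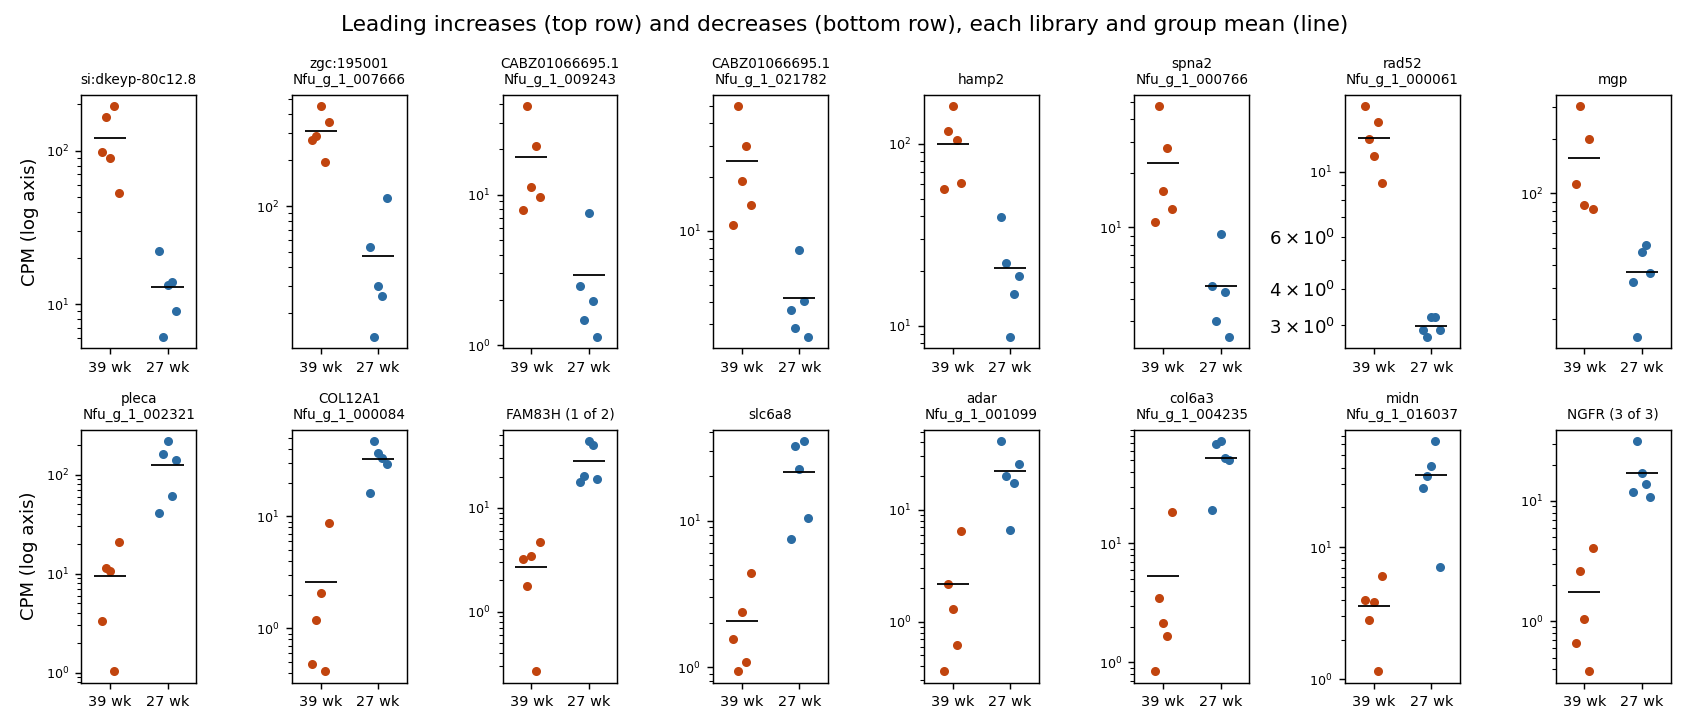
CPM (log axis) of the 8 leading increases (top row) and 8 leading decreases (bottom row) in each 39-week (left, orange) and 27-week (right, blue) skin, with group means as lines. Groups do not overlap in any panel, which the rule for these genes required, and JM24 is the 39-week skin nearest to the younger group in all 8 decreases.

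Fibrillar collagens fell. Of 16 fibrillar collagen loci tested, 10 were called lower (62.5%) and 0 higher, beside 20.7% lower and 17.1% higher of all genes. Their median log2 fold change was -1.07, beside 0.02 over all genes, and all 16 had a fold change below 0. Under the MC10 offset 9 of 16 were called lower, beside 6.93% of all genes. The cartilage-type collagen col2a1a Nfu_g_1_021016 read 18.3, 24.6, 19.8, 31.3 and 46.7 CPM in the 39-week skins, against 45.5, 79.2, 75.97, 86.2 and 43.97 CPM in the 27-week skins, a change of -1.23 ± 0.30 (log2 fold change ± SE, adjusted p = 0.00198). Its groups overlapped, since JM24 exceeded JM55 and JM83. The main collagens of the dermis, col1a1a, col1a1b and col1a2, were chosen for description after their values were seen. The chain col1a1a read 876, 832, 422, 1679 and 1779 CPM in the 39-week skins, against 806, 2370.4, 9302, 5979.6 and 1329 CPM in the 27-week skins, a change of -1.82 ± 0.53 (log2 fold change ± SE, adjusted p = 0.0089). The 27-week skins spread widely, and JM55 and JM83 were within the range of the older skins. The other type I chains changed by -1.93 ± 0.51 (adjusted p = 0.00449) for col1a1b and -1.37 ± 0.47 (adjusted p = 0.0241) for col1a2, and with the MC10 offset by -2.48 (adjusted p = 0.00434) and -1.99 (adjusted p = 0.0102). Without JM72, which had the highest col1a1a reading, 6 of 16 fibrillar collagen loci were called lower. A fit on the 10 libraries alone called 5, beside 2520 of 17526 over all genes. An offset on gene length called 6, and with that offset 18.7% of all genes were called lower and 19.9% higher.

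Many other collagens, and part of their glycoprotein partners and of the enzymes that make collagen, fell with them. Over all genes 20.7% were called lower and 17.1% higher, or 6.93% and 7.01% with the MC10 offset. Of 44 other collagen loci, 26 were called lower (59.1%) and 1 higher (median log2 fold change -1.08). With the MC10 offset 15 of 40 were lower and 1 higher. Collagen XIV, a fibre-associated collagen (col14a1 Nfu_g_1_010125), read 3.66, 7.99, 3.78, 3.31 and 16.3 CPM in the 39-week skins, against 25.5, 64.4, 95.8, 52.6 and 51.4 CPM in the 27-week skins, a change of -3.05 ± 0.40 (log2 fold change ± SE, adjusted p = 4.82e-06). Of 61 matrix glycoproteins 21 were called lower (34.4%), 2 higher and 38 not called, and 15 of 54 lower and 3 higher with the offset. The count lower was 9 on the 10 libraries alone, 13 without JM13 and JM62 and 12 in the 1.5-fold test. Those fits called 2520 of 17526, 3255 of 19170 and 2478 of 18925 of all genes lower. Fibronectin (fn1), which links cells to the matrix, read 17.8, 24.6, 21.9, 11.4 and 36.9 CPM in the 39-week skins, against 51.6, 153, 228, 161 and 97.01 CPM in the 27-week skins, a change of -2.62 ± 0.31 (log2 fold change ± SE, adjusted p = 2.44e-06). Both genes separated the ages fully, with JM24 highest among the older skins. Tenascin X, TNXB (2 of 2), changed by -3.02 ± 0.37 (adjusted p = 3.42e-06). Of 33 collagen-making enzymes 14 were called lower (42.4%), 1 higher and 18 not called, and 10 of 31 lower and 1 higher with the offset. Their count lower was 9 on the 10 libraries alone and 8 in the 1.5-fold test. The cross-linking oxidase loxl1 changed by -2.09 ± 0.28 (adjusted p = 6.13e-06) and the collagen prolyl hydroxylase gene lepre1 Nfu_g_1_016476 by -1.94 ± 0.27 (adjusted p = 8.17e-06). Matrix proteases also fell in part, 17 of 46 (37%) with 1 higher and 28 not called. On the 10 libraries alone 10 were called lower, and in the 1.5-fold test also 10. With the offset 4 of 43 were called lower, beside 6.93% of all genes. The membrane proteases adam17a and MMP15 (1 of 2) changed by -1.56 ± 0.21 (adjusted p = 7.16e-06) and -2.58 ± 0.37 (adjusted p = 1.30e-05). With the offset their log2 fold changes were -0.24 (adjusted p = 0.336) and -0.58 (adjusted p = 0.0773).

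Scale and bone genes were mostly not called. Of 26 loci, 7 were called higher (26.9%, beside 17.1% of all genes), 2 lower (beside 20.7% of all genes) and 17 not called. Under the offset 6 of 22 were higher and 1 lower, beside 7.01% and 6.93% of all genes. The 1.5-fold test left 2 higher, and 1006 of 18925 over all genes. The bone transcription factor dlx5a read 41.9, 43.4, 37.6, 32.1 and 13.03 CPM in the 39-week skins, against 4.92, 10.6, 18.9, 8.38 and 14.2 CPM in the 27-week skins, a change of 1.56 ± 0.33 (log2 fold change ± SE, adjusted p = 0.000756). JM24 overlapped the 27-week skins and the other older skins did not. The Wnt inhibitor sost changed by 0.92 ± 0.19 (adjusted p = 0.000469), but with the MC10 offset by 0.39 (adjusted p = 0.205), and it did not pass the 1.5-fold test (adjusted p = 0.0587).

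Cytosolic ribosomal protein genes rose almost as a block, while most translation factors were not called. Of 76 cytosolic ribosomal protein genes 72 were called higher and 0 lower, with a median log2 fold change of 1.13. The small-subunit protein gene rps26 read 3545, 3099.8, 2784, 2917 and 1749.5 CPM in the 39-week skins, against 891, 1012, 1218, 1152 and 729 CPM in the 27-week skins, a change of 1.49 ± 0.17 (log2 fold change ± SE, adjusted p = 2.34e-06). For rps14 the values were 3855, 3547, 2859.6, 3229.9 and 1849.8 CPM in the 39-week skins, against 933, 1071, 1307, 1151 and 786 CPM in the 27-week skins, a change of 1.55 ± 0.18 (log2 fold change ± SE, adjusted p = 2.55e-06). JM24 was lowest among the older skins in both genes and still above every younger skin. With the MC10 offset 27 of 75 were called higher and 1 lower, and rps26 and rps14 changed by 0.74 (adjusted p = 0.00548) and 0.76 (adjusted p = 0.00649). Of 107 translation factors 33 were called higher (30.8%) and 14 lower (13.1%), beside 17.1% and 20.7% of all genes. With the offset 2 were higher and 10 lower of 106, beside 7.01% and 6.93% of all genes. The initiation factor subunit eif3g changed by 1.06 ± 0.16 (adjusted p = 2.23e-05) and the elongation factor subunit eef1b2 by 1.05 ± 0.17 (adjusted p = 3.55e-05), or by 0.32 (adjusted p = 0.219) with the offset.

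Mitochondrial genes rose at both genomes. Of all genes, 17.1% were called higher and 20.7% lower. Of 13 proteins encoded in mitochondrial DNA, 12 were called higher (92.3%, median log2 fold change 1.12), all but MT-ND4L. The cytochrome b gene MT-CYTB read 11505, 11690, 11367, 12251 and 8754 CPM in the 39-week skins, against 5119, 4899.8, 4164, 5559 and 4969 CPM in the 27-week skins, a change of 1.17 ± 0.13 (log2 fold change ± SE, adjusted p = 1.47e-06). The oxidase subunit MT-COX1 read 38576, 39236, 37994, 36855 and 32874 CPM in the 39-week skins, against 17771, 16448, 15834, 18092 and 16614 CPM in the 27-week skins, a change of 1.13 ± 0.12 (log2 fold change ± SE, adjusted p = 1.47e-06). Neither gene overlapped between the ages, and with the offset 8 of 13 were called higher. Nuclear genes rose too, with 24 of 32 complex I genes (75%) and 25 of 41 genes of complexes II to V (61%) called higher. Of 62 mitochondrial ribosome genes 38 were called higher (61.3%), and 0 were lower in each of these lists. Examples are the respiratory-chain genes ndufa4 Nfu_g_1_007565 (1.13 ± 0.16, adjusted p = 1.24e-05), ndufs5 (1.16 ± 0.19, adjusted p = 4.55e-05), cox6a1 (1.29 ± 0.17, adjusted p = 7.11e-06) and uqcrq (1.17 ± 0.17, adjusted p = 1.34e-05). The mitochondrial ribosome genes mrpl27 and MRPS36 changed by 0.93 ± 0.14 (adjusted p = 2.63e-05) and 1.02 ± 0.16 (adjusted p = 3.09e-05). With the MC10 offset 7.01% of all genes were called higher and 6.93% lower. The calls then fell to 1 of 32 higher with 1 lower in complex I. In complexes II to V they fell to 1 of 41 higher with 1 lower. In the mitochondrial ribosome edgeR then called 0 of 62 higher and 1 lower, with 4 higher at an unadjusted p under 0.05. DESeq2 was not fitted with the offset. Of the genes named, ndufs5, uqcrq, mrpl27 and MRPS36 lost their call with it (adjusted p = 0.162, 0.116, 0.205 and 0.168). Without JM1, 24 of 62 mitochondrial ribosome genes were called higher.

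Enzymes of the TCA cycle and fatty acid oxidation, in the same organelle, showed no such rise. Of 55 genes 3 were called higher (5.45%) and 7 lower (12.7%), beside 17.1% and 20.7% of all genes. Their median log2 fold change was 0.02. The count lower was 11 without JM72 and 12 without JM24. It was 3 on the 10 libraries alone, 4 without JM13 and JM62 and 3 in the 1.5-fold test. Those 3 fits called 2520 of 17526, 3255 of 19170 and 2478 of 18925 of all genes lower. Citrate synthase (cs), the entry enzyme of the cycle, averaged 22.98 ± 13.4 CPM in the 39-week skins and 64.8 ± 13.4 CPM in the 27-week skins (SD, n = 5 each), a change of -1.49 ± 0.25 (log2 fold change ± SE, adjusted p = 6.84e-05). With the MC10 offset 0 were called higher and 15 lower, beside 7.01% and 6.93% of all genes, with cs at -1.05 (adjusted p = 0.00344). The difference between this list and the respiratory chain lists was not tested.

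Protein degradation and antioxidant genes were also higher. Proteasome, autophagy and antioxidant genes were called higher in 58%, 32.9% and 37.7%, beside 17.1% of all genes, of which 20.7% were lower. With the offset 7.01% of all genes were higher and 6.93% lower. Of 50 proteasome genes 29 were called higher and 0 lower, and 7 higher with the offset. The proteasome maturation gene pomp read 127, 80.6, 97.98, 74.9 and 72.9 CPM in the 39-week skins, against 37.7, 34.4, 32.3, 36.7 and 43.4 CPM in the 27-week skins, a change of 1.30 ± 0.15 (log2 fold change ± SE, adjusted p = 2.37e-06). No younger skin reached the lowest older one, and without JM1 18 proteasome genes were called higher. Of 76 autophagy and lysosome genes 25 were called higher and 11 lower, with 4 and 3 under the offset, and the proton pump subunit atp6v1f changed by 1.73 ± 0.20 (adjusted p = 2.34e-06). Of 53 antioxidant genes 20 were called higher and 8 lower, with 3 and 3 of 50 under the offset. Superoxide dismutase (sod1 Nfu_g_1_022128) read 217, 183, 225, 174 and 173 CPM in the 39-week skins, against 91.3, 88.5, 71.4, 76.7 and 81.5 CPM in the 27-week skins, a change of 1.25 ± 0.13 (log2 fold change ± SE, adjusted p = 1.19e-06). Its lowest older skin was JM24 and the groups did not overlap. Peroxiredoxin prdx5 changed by 1.15 ± 0.15 (adjusted p = 4.35e-06). Chaperones were mixed, with 14 of 68 heat shock genes higher and 8 lower. The count higher was 7 without JM1, 8 without JM15 and 32 without JM13, JM18 and JM24, and with the offset 3 of 66 were higher and 2 lower. The chaperonin subunit cct4 Nfu_g_1_023496 changed by 1.42 ± 0.19 (adjusted p = 5.29e-06) and hspe1 by 0.95 ± 0.20 (adjusted p = 0.000697), or 0.15 (adjusted p = 0.528) with the offset. In the endoplasmic reticulum list 11 of 47 were higher and 7 lower (5 and 6 of 46 with the offset), with the translocon genes ssr3 and ssr4 at 1.22 ± 0.17 (adjusted p = 7.95e-06) and 1.01 ± 0.16 (adjusted p = 2.68e-05).

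**Figure D4:**
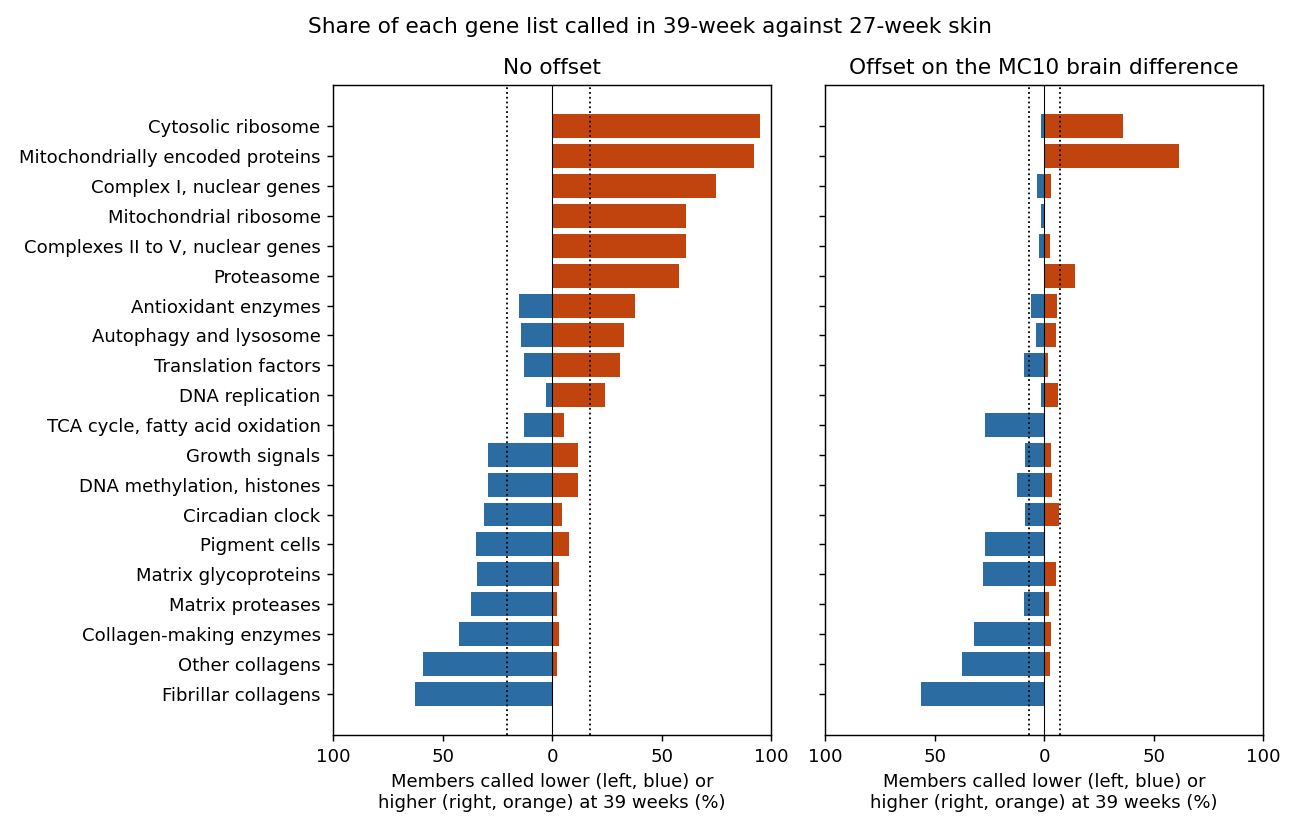
Share of the members of 20 gene lists called higher (orange, right) or lower (blue, left) at 39 against 27 weeks, without (left panel) and with (right panel) an offset on the MC10 brain difference; dotted lines mark the shares over all genes. Collagen lists stay long on the lower side in both panels, while the respiratory chain and mitochondrial ribosome lists lose almost all calls in the right panel.

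Pigment cell genes fell in part. Of 40 loci 14 were called lower (35%) and 3 higher (7.5%), beside 20.7% and 17.1% of all genes. With the MC10 offset 9 of 33 were lower and 0 higher, beside 6.93% and 7.01% of all genes. The endothelin receptor ednrb1a Nfu_g_1_020349, which pigment precursors need, read 7.27, 5.42, 16.5, 1.68 and 10.9 CPM in the 39-week skins, against 50.2, 81.01, 105, 80.8 and 51.5 CPM in the 27-week skins, a change of -3.15 ± 0.38 (log2 fold change ± SE, adjusted p = 2.95e-06). The receptor csf1ra Nfu_g_1_004597, which yellow pigment cells (and macrophages) carry, read 6.67, 4.39, 6.58, 4.58 and 10.1 CPM in the 39-week skins, against 26.97, 35.9, 47.4, 42.8 and 16.7 CPM in the 27-week skins, a change of -2.40 ± 0.30 (log2 fold change ± SE, adjusted p = 4.22e-06). Both separated the ages, and with the offset the changes were -2.02 (adjusted p = 0.000344) and -1.51 (adjusted p = 0.00113). A second locus of each symbol did not pass the test, ednrb1a Nfu_g_1_014850 at -0.13 ± 0.24 (adjusted p = 0.712) and csf1ra Nfu_g_1_006127 at 0.23 ± 0.26 (adjusted p = 0.524). The summed list was 561 to 847 CPM in the 39-week skins and 505 to 1162 CPM in the 27-week skins, so the totals overlapped. Without JM13, JM18 and JM24, 8 loci were called lower.

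Circadian clock genes fell more often than they rose. Of 45 loci 14 were called lower (31.1%) and 2 higher (4.44%), beside 20.7% and 17.1% of all genes. With the MC10 offset 4 were lower and 3 higher, beside 6.93% and 7.01% of all genes. The nuclear receptor rorca, an activator in the clock, read 0.901, 2.37, 2.23, 1.09 and 5.73 CPM in the 39-week skins, against 9.48, 16.3, 16.8, 12.6 and 9.14 CPM in the 27-week skins, a change of -2.38 ± 0.35 (log2 fold change ± SE, adjusted p = 1.87e-05). The clock output factor tefb read 3.18, 0.592, 3.26, 0.502 and 3.04 CPM in the 39-week skins, against 18.9, 15.5, 31.5, 26.2 and 7.63 CPM in the 27-week skins, a change of -3.25 ± 0.52 (log2 fold change ± SE, adjusted p = 3.89e-05). Both separated the ages fully. The clock repressor nr1d1, chosen after its values were seen, read 1.32, 2.12, 1.92, 2.16 and 1.74 CPM in the 39-week skins, against 25.5, 12.8, 21.02, 15.2 and 1.24 CPM in the 27-week skins, a change of -3.02 ± 0.60 (log2 fold change ± SE, adjusted p = 0.00033). JM83 read below every older skin, while the other younger skins read 12.8 CPM or more. Since the labels give no sampling time, time of day and age cannot be told apart for these genes.

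Growth signal genes and chromatin genes were called lower more often than higher, as were all genes (20.7% lower and 17.1% higher). With the MC10 offset 6.93% of all genes were called lower and 7.01% higher. Of 137 ligands, receptors and transducers of the FGF, TGF-beta, Wnt, Notch and related pathways 40 were called lower (29.2%) and 16 higher (11.7%), and 11 and 4 of 128 with the offset. The receptor fgfr3, which restrains bone growth in mammals, read 1.02, 2.27, 2.23, 0.827 and 3.26 CPM in the 39-week skins, against 8.88, 9.22, 16.7, 10.9 and 11.9 CPM in the 27-week skins, a change of -2.58 ± 0.32 (log2 fold change ± SE, adjusted p = 3.61e-06). No older skin reached a younger one, and with the offset the change was -0.58 (adjusted p = 0.0906). Of 85 DNA methylation and histone-modifying genes 25 were called lower (29.4%) and 10 higher (11.8%), and 10 and 3 of 81 with the offset. The histone demethylase kdm5bb read 2.46, 3.85, 3.47, 2.01 and 5.56 CPM in the 39-week skins, against 12.2, 14.002, 16.4, 13.7 and 13.96 CPM in the 27-week skins, a change of -2.02 ± 0.21 (log2 fold change ± SE, adjusted p = 1.43e-06). The DNA methyltransferase dnmt3ab Nfu_g_1_019101 changed by -2.64 ± 0.30 (adjusted p = 2.32e-06), but with the offset by -0.59 (adjusted p = 0.134). The list of p53 and senescence genes was split, with 9 of 47 higher and 11 lower, and 0 higher and 2 lower of 40 with the offset. The growth factor binding gene igfbp6b Nfu_g_1_001911 changed by -3.13 ± 0.46 (adjusted p = 1.76e-05).

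Cell division genes were seldom called lower. Of 66 replication genes 16 were called higher (24.2%) and 2 lower (3.03%), and of 85 mitosis genes 13 higher (15.3%) and 3 lower (3.53%). Over all genes 17.1% were called higher and 20.7% lower, so the share of mitosis genes called higher was below that of all genes. Without JM13, JM18 and JM24, 2 mitosis genes were called higher. The nucleotide-making enzyme RRM2 (1 of 2) Nfu_g_1_019000 changed by 1.34 ± 0.23 (adjusted p = 8.06e-05) and the ubiquitin-conjugating enzyme UBE2C Nfu_g_1_020899 by 1.11 ± 0.17 (adjusted p = 2.74e-05). With the offset 4 of 65 and 3 of 80 were called higher, with 1 lower in each list, beside 7.01% higher and 6.93% lower of all genes.

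Marker genes of other cell types were mixed, and most immune lists held more increases than decreases. Over all genes 17.1% were called higher and 20.7% lower, or 7.01% and 6.93% with the offset. Of macrophage and B cell genes 20.4% and 20% were called higher, near the share of all genes. Complement and interferon genes, at 14.3% and 8.16%, were below it. Of 49 macrophage genes 10 were called higher (20.4%) and 5 lower (10.2%). The lysosomal protease lgmn changed by 0.89 ± 0.17 (adjusted p = 0.000231), or 0.41 (adjusted p = 0.133) with the offset. In the other direction, csf1ra Nfu_g_1_004597, described above among the pigment cell genes, had the lowest fold change of the macrophage list. That locus changed by -2.40 ± 0.30 (adjusted p = 4.22e-06), or -1.51 (adjusted p = 0.00113) with the offset. The complement gene c1qb read 50.3, 43.6, 43.3, 65.8 and 93.9 CPM in the 39-week skins, against 40.2, 20.5, 15.3, 29.9 and 17.5 CPM in the 27-week skins, a change of 1.27 ± 0.28 (log2 fold change ± SE, adjusted p = 0.00104), and 1.28 (adjusted p = 0.0039) with the offset. Of 38 T cell genes 10 were higher (26.3%) and 3 lower (7.89%), of 35 B cell genes 7 higher (11 without JM55) and 3 lower, of 12 granulocyte genes 3 higher and 1 lower, and of 28 complement genes 4 higher and 1 lower. Of 50 inflammation signals 13 were higher (26%) and 7 lower (14%), and of 49 interferon response genes 4 higher and 8 lower. With the offset the calls were 3 higher and 1 lower of 47 macrophage genes, 4 and 1 of 25 T cell genes, 1 and 1 of 26 B cell genes, 1 and 0 of 12 granulocyte genes, 2 and 0 of 28 complement genes, 3 and 4 of 38 inflammation signals and 0 and 3 of 44 interferon genes. Without JM13, JM18 and JM24 the calls were 5 higher for T cells, 4 higher for B cells, 2 higher for complement and 13 lower for interferon. Vessel markers were even, with 4 of 18 in each direction and log2 fold changes from -1.58 to 1.32. Of those called higher, the VEGF receptors flt1 and flt4 Nfu_g_1_014680 changed by 1.07 ± 0.16 (adjusted p = 2.42e-05) and 1.32 ± 0.21 (adjusted p = 3.16e-05). Of 21 fibroblast genes 6 were higher and 4 lower, and their summed level was 475 to 590.4 CPM at 39 weeks against 400.1 to 746 CPM at 27 weeks. Keratin genes were split, with 3 of 16 in each direction (1 higher without any one of JM62, JM83, JM13 and JM18), and so were epidermal junction genes, with 10 of 57 higher and 11 lower. Of 90 muscle genes 18 were lower and 5 higher, with 38 lower without JM24 and 9 without JM62. Of 29 nerve and Schwann cell genes 6 were lower and 1 higher. With the offset, higher and lower, the calls were 3 and 1 of 18 vessel genes, 2 and 1 of 14 fibroblast genes, 0 and 2 of 14 keratins, 11 and 5 of 49 junction genes, 2 and 7 of 72 muscle genes and 0 and 6 of 28 nerve genes. Without JM13, JM18 and JM24, 0 keratins were called higher. Of 40 hepatocyte genes 1 was called in each direction, of 49 glycolysis genes 3 were higher and 6 lower (10 lower without JM24), and of 23 sterol synthesis genes 2 were higher and 1 lower.

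Red-cell and pancreas genes rested on few fish. Over all genes 17.1% were called higher and 20.7% lower, or 7.01% and 6.93% with the MC10 offset. Of 16 red-cell genes 3 were called higher (18.8%), near the share of all genes, and 2 lower (12.5%). The globin hbaa1 Nfu_g_1_007654 read 145, 283, 110.5, 2183 and 49.9 CPM in the 39-week skins, against 21.5, 52.4, 203, 65.9 and 192 CPM in the 27-week skins, a change of 2.37 ± 0.79 (log2 fold change ± SE, adjusted p = 0.0201). JM18 stood above all other skins, and without it the adjusted p was 0.578, with 0 red-cell genes called higher. Without JM62 that adjusted p was 0.0513, again with 0 red-cell genes called higher, and without JM55 1 was called higher, against 3 of 16 with all fish. Without JM13, JM18 and JM24 the count was also 0. Under the offset 1 of 11 was higher and 3 lower. Of 20 pancreas genes 1 was called higher, and the list's median log2 fold change was 1.64, while with the MC10 offset 11 of 17 were called higher and 0 lower. JM13, JM18 and JM24 carried the high values given above. Of the lists described here, those whose counts moved by over 1.5 times without these 3 fish have that count beside them.

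Mean levels of several named genes differed among the earlier ages too. Mean CPM of fn1 at 5, 12, 20, 27 and 39 weeks was 299, 210.3, 145, 138 and 22.5, and that of rps26 673, 900.2, 1069.96, 1000.3 and 2819. For MT-CYTB the means were 5982, 4275, 5372, 4942 and 11114, for ednrb1a Nfu_g_1_020349 37.5, 94.3, 77.9, 73.7 and 8.35 and for sod1 Nfu_g_1_022128 83.04, 67.8, 69.5, 81.9 and 194. In fn1 the mean was highest at 5 weeks and lower at each later age, but no step before 27 weeks passed edgeR's test. Adjusted p was 0.186 from 5 to 12, 0.459 from 12 to 20 and 0.983 from 20 to 27 weeks. The gene ednrb1a Nfu_g_1_020349 had its lowest mean before 39 weeks at 5 weeks. Its rise from 5 to 12 weeks passed that test (1.33, adjusted p = 0.0072). The change between 27 and 39 weeks differed from that between 12 and 20 weeks in 3912 genes (20.7%), 1455 toward higher (7.69%) and 2457 toward lower (13%). Of the cytosolic ribosome list 67 of 76 differed toward higher, of the mitochondrially encoded list 10 of 13, of the other collagens 9 of 44 toward lower and of the clock list 13 of 45 toward lower. Of fibrillar collagens 1 of 16 differed toward lower. The largest difference among the leading genes was that of slc6a8, a late minus adult log2 change of -5.17 (adjusted p = 0.000229), whose mean was 71.2 CPM at 20 weeks.

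**Figure D5:**
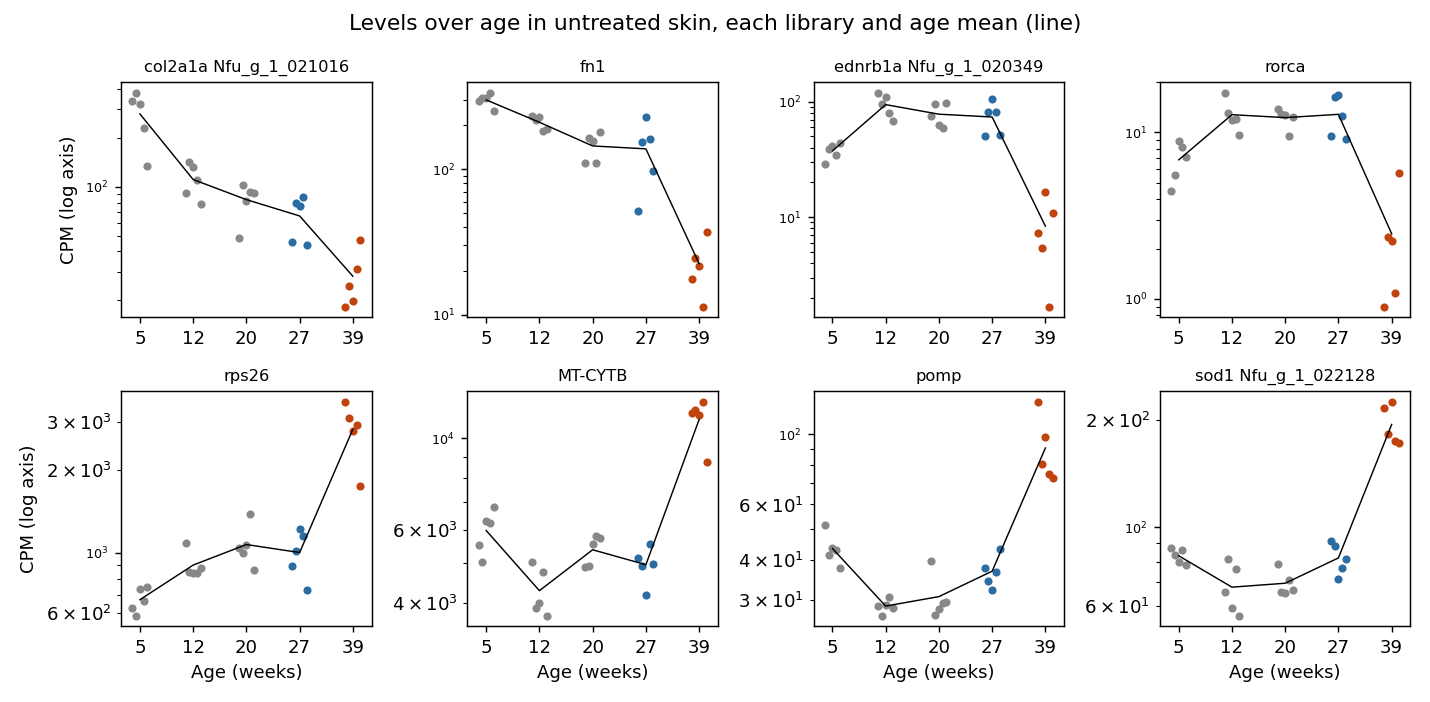
CPM (log axis) of 8 named genes in untreated skin at 5, 12, 20, 27 (blue) and 39 weeks (orange); points are libraries and lines join the age means. In each panel all 5 skins of 39 weeks lie on one side of the means of 12, 20 and 27 weeks.

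The change at maturation, between 5 and 12 weeks, shares no fish with the late change and had 5913 genes called (31.2%), 2763 higher (14.6%) and 3150 lower (16.6%). Of the genes called higher late, 515 were also higher at maturation (15.9% of the late and 18.6% of the maturation genes) and 566 were lower (17.5% and 18%). Of those called lower late, 541 were higher at maturation (13.8% and 19.6%) and 363 lower (9.27% and 11.5%). With the MC10 offset 16.8% of all genes were called higher and 15.9% lower at maturation, and 7.01% and 6.93% late. Both steps were read from the same offset fit. Of the late increases in it, 297 were higher at maturation (24% of the late and 10% of the maturation genes) and 71 lower (5.74% and 2.54%). Of the late decreases with the offset, 185 were higher at maturation (15.1% and 6.23%) and 246 lower (20.1% and 8.79%). Cell division genes fell at maturation, 62 of 66 replication and 69 of 85 mitosis genes, and 44 of 62 mitochondrial ribosome genes fell then. Fibrillar collagens fell in both steps, 13 of 16 at maturation and 10 of 16 late. Pigment cell genes had risen at maturation in 23 of 40 loci, with 0 lower.

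The liver served as a second tissue, with 5 livers at 39 weeks and 5 at 27 weeks, of which 4 and 3 came from fish whose skin was also sampled. In liver edgeR called 0 of 18714 genes, with 1369 at an unadjusted p under 0.05 and 137 called by DESeq2. Within a fit of both tissues 3596 genes were called in skin (19.2%), with 7.32% of all genes higher and 11.9% lower. The change itself differed between skin and liver in 650 genes (3.47%), 156 toward higher (0.834%) and 494 toward lower (2.64%) in skin. That fit takes the 20 libraries as independent, although 7 fish gave both tissues. A voom fit with fish as a random block (correlation within fish 0.392) called 2567, 842 higher and 1725 lower. Among the leading genes NGFR (3 of 3), COL12A1 Nfu_g_1_000084, slc6a8 and FAM83H (1 of 2) differed, by -3.96, -3.50, -4.53 and -4.01 (adjusted p = 0.0291, 0.0405, 0.0405 and 0.0456). Examples of list members that differed were pomp (1.30, adjusted p = 0.0263), sod1 Nfu_g_1_022128 (1.51, adjusted p = 0.0382), ednrb1a Nfu_g_1_020349 (-3.21, adjusted p = 0.0297) and col14a1 Nfu_g_1_010125 (-3.33, adjusted p = 0.0297). Members that did not pass included fn1 (-1.28, adjusted p = 0.495) and col2a1a Nfu_g_1_021016 (-1.27, adjusted p = 0.359). Differing toward higher in skin were 5 of 13 mitochondrially encoded, 5 of 50 proteasome, 3 of 32 complex I and 0 of 76 cytosolic ribosome genes. Toward lower were 9 of 139 growth signal genes, 3 of 41 other collagens and 0 of 15 fibrillar collagens. The call count depended on single libraries, with 0 to 1460 genes when 1 of 20 was left out. Leaving out the skin of JM13 gave 31 genes, and leaving out the 27-week liver of JM72 also gave 31; 16 of the 20 libraries moved the count by more than 1.5 times. Without the skin of JM62 edgeR called 0 genes, with 3506 at an unadjusted p under 0.05 and 1270 called by DESeq2, and without the skin of JM24 it called 1460. Nuclear complex I genes had a median log2 fold change of 0.76 in skin and -0.13 in liver, and other collagens of -0.94 in skin and 0.22 in liver, differences that were not tested for the lists as a whole.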

How the data were processed

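RNA of killifish skin and other tissues was extracted with QIAzol and made into TruSeq libraries, per the labels' protocols. CASAVA 1.8.0 and 1.8.2, bcl2fastq 1.8.4, TopHat2 2.0.6 and featureCounts 1.4.3-p1 are named in the submitters' processing notes. Neither genome build nor annotation is named in any label or header. The deposited table of whole-number counts per gene holds 23564 genes. The deposited RPKM table was used for gene lengths (21550 genes), which the ratio of counts to RPKM gives. No strand-specific counting is stated, so reads of overlapping genes cannot be told apart.

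Genes kept by filterByExpr were tested with edgeR 4.0.16 (R 4.3.3; TMM factors, quasi-likelihood test, robust fit) across the 25 untreated skins, which share 1 estimate of the spread, with Benjamini-Hochberg adjustment over all genes tested. The SE is that of the log2 fold change. Values are CPM with TMM library sizes, and log2 CPM add a prior count of 2. P-values measure the spread between fish, and nothing in the labels says whether a library pools animals. The contrast of the late with the adult change is the difference of 2 fold changes (39 over 27 weeks, 20 over 12 weeks). Skin and liver were fitted together on 20 libraries, with a limma 3.58.1 voom fit with fish as a random block and DESeq2 1.42.0 as alternatives. For the MC10 offset, each library's log2 CPM deviation from the gene means over all libraries of the fit was smoothed on the MC10 brain difference. The smoother was lowess (span 0.3), and each library's curve entered the model as its own offset. Genes whose log2 CPM averaged -1 or more in brain were used. The length offset was made in the same way on log2 gene length.

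Genes named are the 8 largest increases and 8 largest decreases with a symbol, log2 CPM averaging 2 or more, no overlap between the ages and the same sign with each library left out, and in each of 49 lists with at least 3 called members the 2 with the smallest p in its main direction, of which not all are reported here. The members and lists were chosen with earlier results of these data known. Replicates of a group differed by far more than sampling noise (smallest chi-square per degree of freedom 50.5), so none was counted as a copy. Symbols came from the deposited files, and 10157 loci share a symbol with another. The code was tested on simulated data.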

Additional observations from a re-analysis of the deposited data

Results flagged for a closer look

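Of 218 groups of 5 examined (named genes and library measures at both ages), 10 had 1 fish far from the other 4, by the ratio of its gap to the range. The cutoff singles out about 1 in 20 independent groups. That rate cannot be set against the count here, since most genes were picked by small p or no overlap and all were read in the same fish. Among 39-week skins JM24 stood apart in dlx5a (0.749), MT-CYTB (0.777) and PMVK (0.936), on the side of the 27-week skins in each. JM1 was lowest in neb Nfu_g_1_011303, a muscle filament gene (0.762), and JM18 was highest in the share of mitochondrial rRNA and tRNA (0.778), at 0.291% against 0.197 to 0.218% in the other 4. Among 27-week skins JM83 stood apart in cct4 Nfu_g_1_023496 (0.743), mrpl27 (0.739), the lactate transporter gene SLC16A1 (2 of 2) Nfu_g_1_001909 (0.861) and the oxygen sensor EGLN1 (2 of 2) (0.713). JM55 was lowest in col6a3 Nfu_g_1_004235 (0.733).

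The change between 27 and 39 weeks differed between skin and liver, by the interaction test of edgeR with Benjamini-Hochberg adjustment, in 4 leading decreases. The differences, skin minus liver on the log2 scale, were -3.96 for NGFR (3 of 3), -3.50 for COL12A1 Nfu_g_1_000084, -4.53 for slc6a8 and -4.01 for FAM83H (1 of 2), with adjusted p between 0.0291 and 0.0456. Without the skin of JM62 the edgeR test called 0 genes, so none of these, while DESeq2 called 1270. The edgeR test takes the skin and liver of the same fish as independent.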

How the results depend on the processing

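With RLE size factors, DESeq2, no filter on low counts, a length offset or without JM13 and JM62 (the 39- and 27-week skins labelled w0w1), 5746 to 7977 genes were called between 39 and 27 weeks. Counts called, with those higher and lower, were 4517 (1997 and 2520) on the 10 libraries alone, 3484 (1006 and 2478) against a 1.5-fold change and 2460 (1237 and 1223) with the MC10 offset. A mean log2 CPM of at least 2 left 2549 lower. Fewer genes or samples enter some of these fits; the cause was otherwise not tested. With 1 library left out the total was 6237 to 8020, higher 2741 to 3566 and lower 3376 to 4454. The late against adult count was 2601 without JM13 and JM62, with the 3 earlier skins of that label kept, and 643 with the MC10 offset (2995 to 5059 with 1 left out). Between 20 and 12 weeks DESeq2 called 159 genes and between 27 and 20 weeks 36. Leaving out JM13, JM18 and JM24, chosen after seeing the data, gave 15 and 3 (0 to 4, and 0 to 0, with 1 left out).

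List calls by the 10 libraries alone, by the 1.5-fold test and by the MC10 offset were 16, 15 and 15 for other collagens, 22, 5 and 0 for the mitochondrial ribosome and 19, 15 and 7 for the proteasome. The main fit and the 1.5-fold test held 44, 62 and 50 loci of these lists, and 32 and 41 of the next 2. Over all genes the 3 fits called 1997 of 17526, 1006 of 18925 and 1237 of 17657 higher. They called 2520, 2478 and 1223 lower. The 1.5-fold test and the MC10 offset gave 6 and 1 for complex I and 11 and 1 for complexes II to V. Fibrillar collagens had 5, 5 and, with the length offset, 6. Pigment cell genes had 9 on the 10 libraries, 8 at a mean log2 CPM of at least 2, 9 with the MC10 offset and 8 without the 3 fish. Clock genes had 4 and cytosolic ribosome genes 27 with the MC10 offset. With 1 library left out the counts were 6 to 13 for fibrillar and 23 to 31 for other collagens, 12 to 14 for pigment cells, 72 to 73 for the cytosolic ribosome, 24 to 40 for the mitochondrial ribosome, 21 to 26 for complex I and for complexes II to V, 12 to 13 for mitochondrially encoded genes, 18 to 34 for the proteasome and 14 to 18 for the clock.

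The skin against liver count was 414 at a mean log2 CPM of at least 2 and 2567 by voom with fish as a block. Its increases were 100 without a filter, 80 at that mean and 842 by voom, and its decreases 1725 by voom. With 1 left out they were 0 to 1460, 0 to 477 and 0 to 1124. Without JM55 the share of the 10 top genes differed by 0.299, and without JM15 the length slope by 0.00286, against the sign with all fish. With 1 left out the differences were -401 to -175 genes detected, 0.109 to 0.133 and 2.87 to 3.42 percentage points of mitochondrial rRNA and tRNA and protein transcripts, -2.31 to 0.299 points of the top 10, -0.0251 to 0.00286 in length slope and 0.529 to 0.637 in MC10 slope. Of 103 named genes 60 kept their call with the MC10 offset, 36 lost it and KRT18 (2 of 3) changed sign (-0.018, adjusted p = 0.968). No paired analysis was possible because the skins of the ages come from different fish. With 5 fish an age, small changes of low genes are not detectable.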

Other observations

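Skins of treated fish aged 27 weeks were placed on the same line between the mean 27-week and the mean 39-week untreated skin. Those of 5 fish given rotenone, an inhibitor of respiratory complex I, lay between 0.0181 and 0.239 (median 0.135). Those of 5 fish given the vehicle DMSO lay between -0.0778 and 0.0754 (median 0.0179). All 10 lay below the lowest 39-week skin. Slopes on the MC10 brain difference ran from 0.0284 to 0.172 in the rotenone skins and from -0.0829 to -0.0167 in the DMSO skins.

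In most genes the spread between fish was larger at 39 than at 27 weeks, a difference that was not tested. The SD of log2 CPM over 5 fish had a median of 0.544 at 39 weeks and 0.459 at 27 weeks, and it was larger at 39 weeks in 60.1% of genes. At 5, 12 and 20 weeks the median was 0.340, 0.280 and 0.419. All genes of an age were read in the same 5 fish, and those of 39 weeks include JM24, at position 0.422, and JM18, at 1.32. The part of single fish and of the library measures in this spread was not tested.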
